A study of Mus musculus with 2 samples.

Results

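The Sox transcription factors expressed in neural stem cells, young neurons and glia were followed here as chromatin, in hippocampus of young mice. The set was 10 genes, chosen by name from the 21884 protein-coding genes of the annotation: Sox1 and Sox2 (SoxB1), Sox21 (SoxB2), Sox4 and Sox11 (SoxC), Sox5 and Sox6 (SoxD), and Sox8, Sox9 and Sox10 (SoxE). Each locus was the gene with 50 kb on either side. A promoter peak lay within 500 bp of a transcript start of the gene, and a distal peak lay over 1 kb from every annotated start. The assay was DNase-seq, in which open chromatin is found as DNA that the nuclease DNase I cuts readily. There were 2 libraries of 1 group, replicates 1 and 2, from hippocampus of B6CASTF1/J females aged 14 days, an F1 hybrid of C57BL/6J and CAST/EiJ. Each label names 3 females and gives its library a biological replicate number of its own. Neither says whether the libraries came from separate animals, so the spread between them may still be technical. No treatment, mutant or second condition was labelled, so there was no comparison between conditions and no test, and values of both libraries stand side by side. The tissue was bulk: fewer cells with an open site and less opening in each cell cannot be told apart.

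Sox proteins bind the minor groove of DNA through a high-mobility-group domain, bend it, and usually act with a partner factor on a neighbouring site. SoxB1 proteins hold neural progenitors in their dividing state, and Sox21 counteracts them in the chick neural tube. SoxC proteins turn on neuronal genes in newly made neurons, including granule neurons of the dentate gyrus. The SoxD proteins Sox5 and Sox6 lack an activation domain and modulate other Sox proteins, and SoxE proteins direct glia: Sox9 works in glial specification and astrocytes, and Sox10, partly with Sox8, drives oligodendrocyte myelination. Several of these genes are short, with enhancers spread over wide stretches around them.

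The libraries differed in scale, so levels were read within a library. Replicate 1 had 115699 peaks with a median deposited signal of 0.821, and replicate 2 had 167829 with a median of 0.485. Read depth is unknown, because the files give no read counts. In both libraries a peak stood at the promoter of 6 of 6 neuronal, 5 of 5 astrocyte, 6 of 7 oligodendrocyte-lineage and 3 of 4 microglial marker genes. Vessel markers and markers of ependyma and choroid plexus had 1 of 3 each. Of 5 marker genes of liver, heart, skin and T cells none did, and Apob had a peak in replicate 1 alone. The matching share of all protein-coding genes was 63.2%, so 6 of 7 or 3 of 4 does not by itself show a cell type. Among neuronal, astrocyte, oligodendrocyte-lineage and microglial markers, Mag was weakest in both libraries. Of coding genes with a promoter peak, 1.89% in replicate 1 and 0.929% in replicate 2 stood at or below it. For the strongest marker these values were 46.0% (Camk2a) and 54.2% (Neurod6). Which of these cells a Sox peak came from cannot be resolved in bulk tissue.

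Promoter peaks were present in both libraries at 9 of the 10 Sox genes, against 63.2% of all protein-coding genes. The exception was Sox10, which had a weak promoter peak in replicate 1 and none in replicate 2. In the shorter, stricter peak list deposited for each library the same 9 genes had one in both, against 58.6% of all coding genes. The strength of these peaks was ordinary. The median over the members was 5.06 in replicate 1 and 2.52 in replicate 2, against 5.62 and 2.52 over all coding genes with a promoter peak. In each library 4 members stood above that median.

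The SoxC genes had the strongest promoters of the set in both libraries. Sox4, which promotes survival and maturation of young neurons (ENSMUSG00000076431.4, chr13:28948919-28953713, minus strand), carried a promoter peak of signal 11.0 in replicate 1, with 6.90 in replicate 2. These values stood at percentiles 79.3 and 91.9 of all coding genes with a promoter peak, counted as the percent of genes at or below. Sox11, its close relative (ENSMUSG00000063632.6, chr12:27334264-27342574, minus strand), had 8.84 and 5.04, at percentiles 69.2 and 79.7. The RefSeq promoter of Sox4 on mm10 (250 bases before to 50 after the start, chr13:28953650-28953949, gene strand) is printed because it carried the strongest of these peaks, with the 92 bases that lie in footprints of both libraries in capitals. A footprint is a short stretch within open chromatin that the authors called as shielded from cutting.
Sox4 promoter: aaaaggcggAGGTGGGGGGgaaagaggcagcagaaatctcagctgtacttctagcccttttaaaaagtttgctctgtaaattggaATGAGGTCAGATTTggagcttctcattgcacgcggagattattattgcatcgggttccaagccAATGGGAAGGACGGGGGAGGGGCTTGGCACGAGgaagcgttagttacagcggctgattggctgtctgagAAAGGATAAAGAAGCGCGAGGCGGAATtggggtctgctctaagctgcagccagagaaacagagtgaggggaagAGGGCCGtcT
Within this window replicate 1 had 7 footprints and replicate 2 had 6, and neither SOX word sought further on was present. RefSeq promoter sequences were at hand for 8 of the 10 genes (13 promoters, none for Sox9 or Sox10). Their median CpG content, as observed over expected, was 0.647, against 0.384 over all 32851 RefSeq mouse promoters, which cover 27025 genes. Genes did not weigh equally in this median, because Sox6 supplied several of the 13 promoters. Sox1, Sox2, Sox4, Sox8, Sox11 and Sox21, with 1 promoter each, ran from 0.647 at Sox8 to 1.07 at Sox1. The promoter of Sox5 had 0.256, and those of Sox6 reached at most 0.672, most of them under 0.384.

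Among the SoxE genes the promoter signal ran from above the median of coding genes to far below it. Sox8, which acts with Sox10 in oligodendrocytes (ENSMUSG00000024176.10, chr17:25565892-25570686, minus strand), had 7.69 in replicate 1 and 3.25 in replicate 2, at percentiles 62.4 and 60.6. Sox9, which specifies glia and marks astrocytes (ENSMUSG00000000567.5, chr11:112782224-112787760, plus strand), had 5.52 and 3.92, at percentiles 49.3 and 69.1. Sox10 (ENSMUSG00000033006.10, chr15:79154908-79165240, minus strand) had 1.08 in replicate 1, at percentile 11.6. In replicate 2 the peak nearest to any of its 4 annotated starts was 11414 bp away, beyond the 3′ end of the gene. The Sox10 peak of replicate 1 lay 0.808 kb inside the gene from its 5′ end, held 1 footprint and was not in the stricter list. At Sox8 and Sox9 the peak also lay within 500 bp of a start of a noncoding neighbour, 2810468N07Rik and BC006965, and the signal cannot be divided between them.

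SoxB promoters ran from near the median of coding genes to below it. Sox2, the stem cell factor (ENSMUSG00000074637.7, chr3:34650405-34652461, plus strand), had 5.79 in replicate 1 and 2.52 in replicate 2, at percentiles 51.4 and 49.95. Its strongest peak was centred 0.514 kb upstream of the annotated 5′ end. The RefSeq start of Sox2 lies 410 bp upstream of the GENCODE one, inside that peak in replicate 1. With a promoter window of 250 bp the mean percentile of Sox2 was 11.8, since the peak then fell outside. Sox1, a marker of early neuroectoderm (ENSMUSG00000096014.1, chr8:12395295-12400126, plus strand), had 4.61 and 1.47, at percentiles 43.1 and 32.2. Sox21 (ENSMUSG00000061517.8, chr14:118233232-118237030, minus strand) had 3.02 and 1.14, at percentiles 30.8 and 25.6, with a start of the noncoding gene Gm4675 in reach of the same peak.

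The long SoxD genes had promoter peaks spread over several starts, with the strongest of each below the median of coding genes. Sox5, a regulator of projection neuron and oligodendrocyte timing (ENSMUSG00000041540.16, chr6:143828425-144781977, minus strand), has 12 annotated starts and had 6 promoter peaks in replicate 1 and 5 in replicate 2. Its strongest signal was 1.92 at the 5′ end in replicate 1 (chr6:144781541-144781980). In replicate 2 it was 0.698 at an internal start (chr6:144204001-144204240), where replicate 1 had 1.31. Sox6, which acts in interneurons and in glial progenitors (ENSMUSG00000051910.13, chr7:115470872-116038796, minus strand), has 13 starts and had 10 and 9 promoter peaks. Its strongest signals, 2.49 and 2.09, lay at internal starts 4.93 and 5.70 kb from the 5′ end, and within 0.6 kb of the 5′ end itself the strongest had 0.6003 in replicate 1, while replicate 2 had none there. With starts of protein-coding transcripts alone, the mean percentile was 10.9 for Sox5 and 15.1 for Sox6, against 18.3 and 34.9 with all starts.

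In order of signal, Sox4 and Sox11 held places 1 and 2 in both libraries, and Sox5 held place 9. Between them neighbours changed places: Sox8, Sox2 and Sox9 ran in that order in replicate 1, and Sox9, Sox8 and Sox2 in replicate 2. Sox1, Sox21 and Sox6 followed in replicate 1, and Sox6, Sox1 and Sox21 in replicate 2. Within these 2 trios Sox8 stayed above Sox2 and Sox1 above Sox21, while the places of Sox9 and Sox6 depended on the library.

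**Figure D1:**
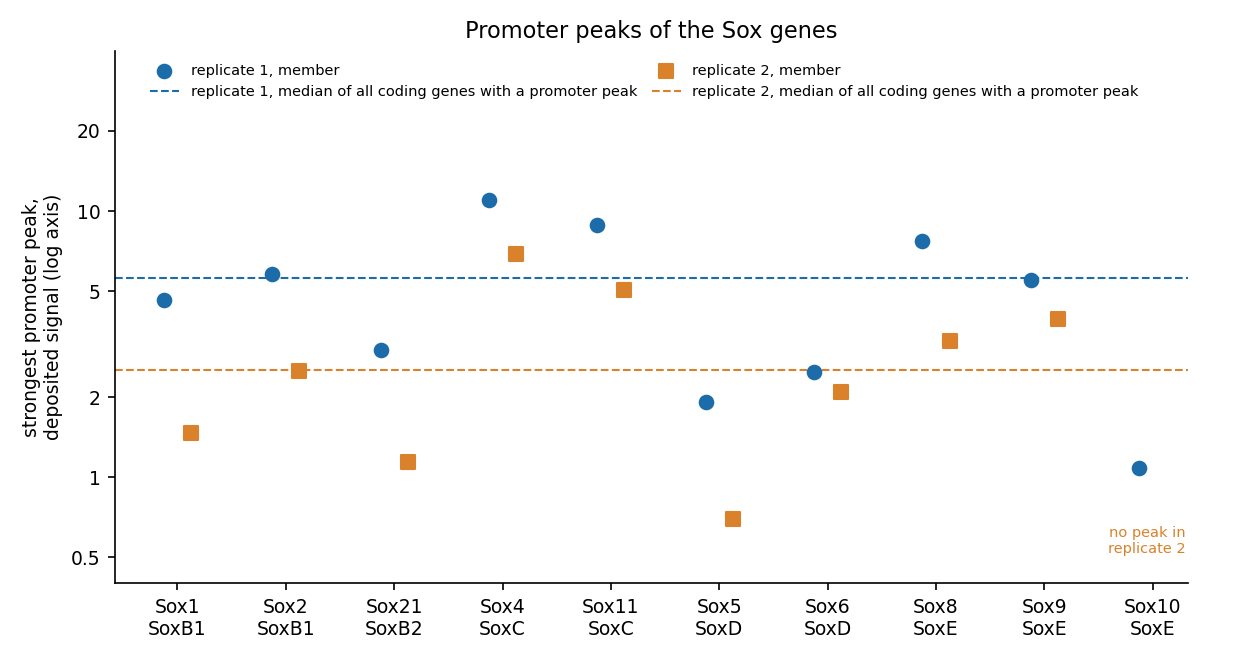
Deposited signal of the strongest promoter peak (log axis) of each Sox gene in replicate 1 (circles) and replicate 2 (squares), with the median of all coding genes that have a promoter peak as dashed lines (5.62 and 2.52). Sox4 and Sox11 are highest in both libraries, and Sox10 has a point of 1.08 in replicate 1 only.

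The width of opening gave a second view of the same starts. The share of bases that the authors list with a false discovery rate under 0.05 was taken within 500 bp of the best covered start. Its median over the members was 99.9% in replicate 1 and 74.6% in replicate 2, against 67.7% and 52.9% over all coding genes. This background includes genes without a promoter peak, which the background of the promoter signal leaves out. Sox11 was covered at 100% in both libraries, and Sox4 at 89.7% in replicate 1 and 92.0% in replicate 2. Sox5, with its weak peaks, was covered at 100% and 86.6%, and Sox6 at 100% and 86.1%. For both this is the best of many starts, 12 at Sox5 and 13 at Sox6. Sox10 was covered at 16.98% in replicate 1 and 0% in replicate 2.

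Away from the starts, the loci held many peaks. Over the 10 loci there were 149 distal peaks in replicate 1 and 209 in replicate 2. The median per locus was 11.5 and 13, a mean of 12.25 ± 1.06 (SD, n = 2), against 4 and 6 for all coding loci. Per 100 kb of locus the member median was 9.52 and 9.15, against 2.97 and 4.74, and all 10 members exceeded the median of all coding loci in both libraries. The count depends on gene spacing too, since a distal peak must lie over 1 kb from every annotated start. A distal peak overlapping one of the other library was present at 10 of 10 loci, against 81.8% of all coding loci.

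Sox8 had the densest locus when both libraries are read together. It held 18 distal peaks in replicate 1 and 17 in replicate 2, or 17.2 and 16.2 per 100 kb. Of the 7 upstream of Sox8 in each library, all but the nearest lay within the neighbouring coding gene Lmf1. Sox2 had 10 and 19, or 9.80 and 18.6 per 100 kb. Sox4 had 9 and 15, Sox21 7 and 11, Sox11 10 in each, and Sox10 11 and 10. Sox1 had 12 and 6, and Sox9 had 13 and 6. The long genes had the highest counts, Sox5 with 37 and 76 and Sox6 with 22 and 39, and the lowest densities in replicate 1, at 3.51 and 3.29 per 100 kb. Most of these lay in the genes' own introns: 34 and 69 at Sox5, and 14 and 32 at Sox6.

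**Figure D2:**
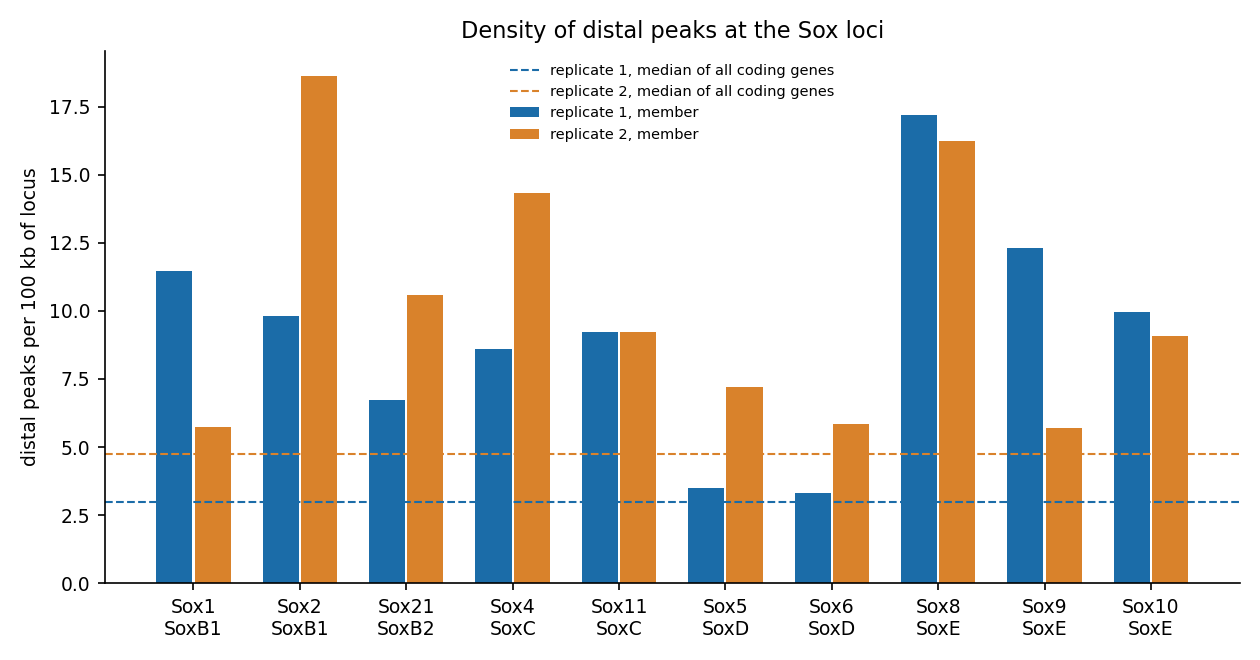
Distal peaks per 100 kb at each Sox locus (gene and 50 kb on either side) in replicate 1 and replicate 2, with the medians of all coding loci as dashed lines (2.97 and 4.74). Every bar is above its library's line, and Sox1 and Sox9 are higher in replicate 1 while Sox2, Sox4 and Sox5 are higher in replicate 2.

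At Sox1, Sox8, Sox9 and Sox10 replicate 1 had more distal peaks than replicate 2, as at 18.2% of all coding loci, and at 5 members replicate 2 had more, as at 65.3%. Among the 4 loci with more in replicate 1, the gap was widest at Sox9, by count 13 against 6, and at Sox1, 12 against 6. Upstream of Sox1 there were 6 distal peaks in replicate 1, with signals between 0.395 and 1.46, none of them overlapping a peak of replicate 2, where 1 lay elsewhere upstream. Peaks at starts of the noncoding neighbours Sox1ot, Gm25239 and Gm45560 numbered 7 in replicate 1 and 0 in replicate 2. At Sox2 the same count was 4 in replicate 1 and 11 in replicate 2, at Sox2ot and other noncoding starts.

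When overlapping distal peaks were joined into sites, the 10 loci held 246 sites, of which 93 (37.8%) had a peak in both libraries, 46 in replicate 1 alone and 107 in replicate 2 alone. By peaks, 104 of 149 (69.8%) in replicate 1 and 103 of 209 (49.3%) in replicate 2 overlapped a peak of the other library, a mean of 59.5% ± 14.5 (SD, n = 2), against 68.9% and 42.7% of all distal peaks. The share in replicate 1 was close to the background. Sox21 had 6 of 8 sites in both libraries, Sox8 had 14 of 19, Sox4 8 of 13 and Sox10 6 of 10. At the other end, Sox6 had 11 of 49, Sox9 4 of 15 and Sox1 4 of 14. Peaks in both libraries were the stronger ones, with a median signal of 0.992 in replicate 1 and 0.646 in replicate 2, against 0.486 and 0.335 for peaks of 1 library.

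**Figure D3:**
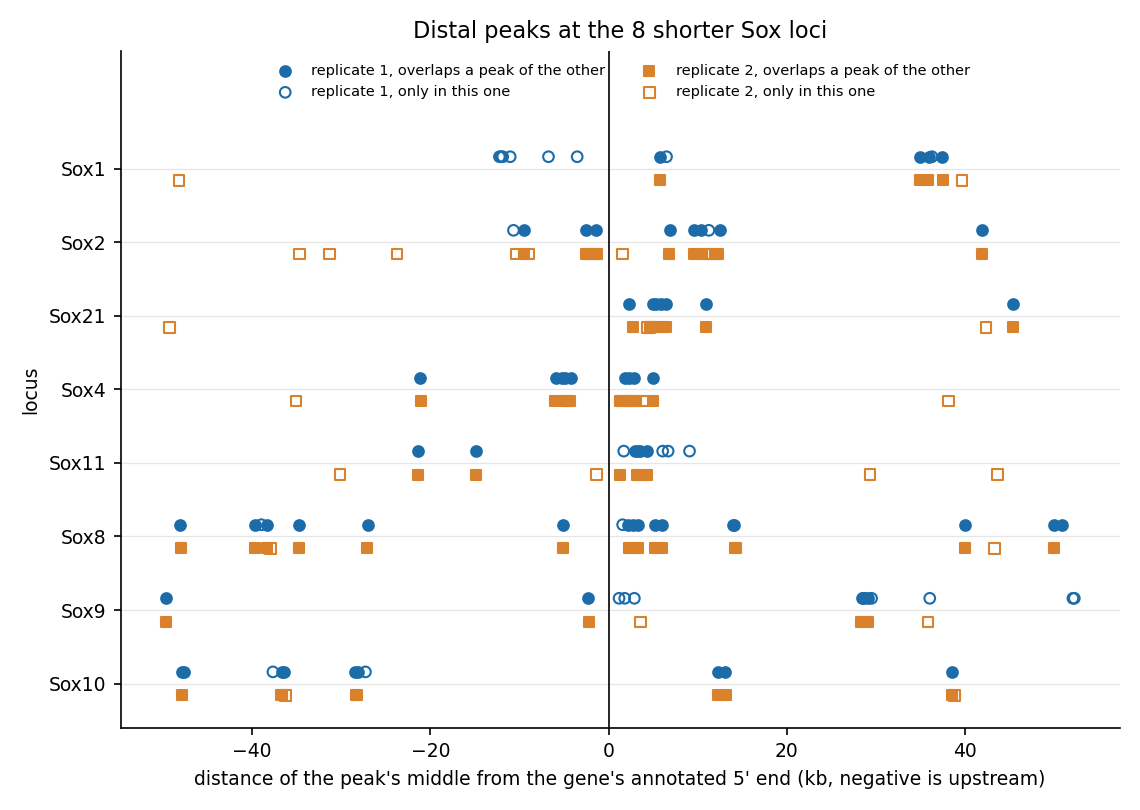
Middle of each distal peak by its distance from the gene's 5′ end (kb, negative is upstream) at the 8 shorter Sox loci, with circles for replicate 1 above squares for replicate 2. Filled symbols overlap a peak of the other library: all 7 and 7 of 11 at Sox21, and 4 of 12 and 4 of 6 at Sox1.

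For each locus, the site of both libraries whose lower percentile among all distal peaks was highest was taken as its leading site. These leading sites lay 2.48 kb to 371.6 kb from the gene's 5′ end. Those of Sox4, Sox2, Sox5 and Sox1 are printed as the overlap of both libraries' peaks on mm10, plus strand, because the rule ranked them highest among sites found in both libraries, with bases in footprints of both libraries in capitals. The Sox8 site ranked between those of Sox2 and Sox5 but is given by position only: all its 220 bases are coding in an annotated transcript, and 93 of them are also annotated as untranslated.
Sox4 chr13:28957921-28958080: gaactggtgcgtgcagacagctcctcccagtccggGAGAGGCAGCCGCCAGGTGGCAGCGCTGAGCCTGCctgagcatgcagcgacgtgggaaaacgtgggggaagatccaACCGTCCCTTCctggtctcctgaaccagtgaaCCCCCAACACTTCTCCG
Sox2 chr3:34647841-34648000: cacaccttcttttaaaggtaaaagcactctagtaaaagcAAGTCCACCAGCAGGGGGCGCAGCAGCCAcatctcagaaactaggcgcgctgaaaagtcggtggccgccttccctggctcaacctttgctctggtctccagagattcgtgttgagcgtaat
Sox5 chr6:144452761-144452920: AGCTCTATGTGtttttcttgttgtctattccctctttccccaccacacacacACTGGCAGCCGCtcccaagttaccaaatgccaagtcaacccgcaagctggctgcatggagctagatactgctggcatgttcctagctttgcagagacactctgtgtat
Sox1 chr8:12430121-12430340: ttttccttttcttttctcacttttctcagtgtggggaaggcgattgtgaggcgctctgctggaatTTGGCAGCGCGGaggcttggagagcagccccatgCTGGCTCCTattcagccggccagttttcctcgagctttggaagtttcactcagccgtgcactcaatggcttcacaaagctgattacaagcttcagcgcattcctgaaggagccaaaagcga

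The leading site of Sox4 was stronger than the gene's own promoter in replicate 1. It lay 4.27 kb upstream with signals of 13.4 in replicate 1 and 5.05 in replicate 2, at percentile 99.9 of all distal peaks in both. Its neighbour 5.95 kb upstream (chr13:28959501-28959820 in replicate 1) had 5.395 and 1.70. Sox2's leading site lay 2.48 kb upstream, within the noncoding gene Sox2ot, with 4.96 and 2.29, at percentiles 97.4 and 97.8. The longest run of footprint capitals at each of these 2 sites contains the CTCF consensus, the binding motif of the insulator protein, on 1 strand. This motif was sought after the sequences had been seen. Over all member distal peaks 2 of 149 windows of 200 bp held it in replicate 1 and 2 of 209 in replicate 2, against 5.15% and 3.88% of all distal windows. Among distal peaks at or above percentile 90 of signal the motif was more frequent, at 2 of 15 and 2 of 16 member windows, against 22.9% and 16.4% of all.

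At Sox8 the leading site lay in the gene's own exon (chr17:25567861-25568080), with 5.08 in replicate 1 and 1.60 in replicate 2, at percentiles 97.6 and 93.9, and held 4 and 5 footprints. At Sox5 it lay in an intron 329.1 kb from the 5′ end with 3.12 and 2.18, and a further intronic peak 725.1 kb along (chr6:144056801-144057000 in replicate 1) had 3.09 and 2.43. At Sox1 it lay 34.9 kb downstream of the 5′ end within Sox1ot, with 2.39 and 1.45. The Sox9 site (chr11:112811181-112811460), 29.1 kb downstream of the 5′ end, had 1.57 and 1.70. Sox11's leading site lay within its single-exon body, 3.31 kb from the 5′ end, with 2.44 and 0.906. Sox6 (1.15 and 0.669, intronic) and Sox21 (0.995 and 1.65, 6.42 kb downstream) completed the set.

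Sox10 combined a weak promoter peak, called in replicate 1 alone, with distal sites called in both libraries. All its distal peaks lay outside the gene: 8 upstream and 3 downstream in replicate 1, and 6 upstream and 4 downstream in replicate 2. Its leading site lay 28.1 kb upstream, with the peaks of both libraries overlapping at chr15:79193121-79193740. The site had 1.62 in replicate 1 and 1.15 in replicate 2, at percentiles 83.4 and 87.7 of all distal peaks. Median distal signal at the locus was 1.23 and 0.666, against 0.676 and 0.438 over all distal peaks. Peaks at starts of the neighbours Micall1, Polr2f and noncoding genes numbered 6 in each library.

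Sox proteins recognise a short core, sought here as ACAATG or ACAAAG on either strand in the 200 bp around the middle of each distal peak. Over all member loci 24.2% of windows in replicate 1 and 28.2% in replicate 2 held such a word, a mean of 26.2% ± 2.88 (SD, n = 2), against 22.1% and 26.2% of all distal windows. The set as a whole was thus close to the background. Sox10 stood apart, with 7 of 11 windows (63.6%) in replicate 1 and 7 of 10 (70.0%) in replicate 2. Sox4 was low in both, with 1 of 9 and 2 of 15. Others differed between libraries, such as Sox11 with 4 of 10 and 1 of 10, and Sox9 with 3 of 13 and 3 of 6.

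The Sox10 share was set beside all 3129 coding loci with at least 10 distal peaks in each library, a choice made after its value was seen. The median share there was 20% in replicate 1 and 23.1% in replicate 2. No other of these loci reached Sox10's share in both libraries. In replicate 1 alone 4 loci did, Sox10 included, and in replicate 2 alone only Sox10 did. The limit of 10 is Sox10's own count in replicate 2, so Sox10 sits among the smallest counts admitted, where shares vary most. Some of Sox10's windows overlap each other, and windows of the 2 libraries cover much of the same sequence, so these are not independent counts. Its rank among these loci is therefore a description and not a test. The 6 words that fell in windows of both libraries are printed with their surroundings, read in the direction of the word, with the word in capitals.
chr15:79201785-79201824: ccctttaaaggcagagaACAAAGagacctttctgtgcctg
chr15:79193319-79193358: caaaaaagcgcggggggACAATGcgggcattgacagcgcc
chr15:79152927-79152966: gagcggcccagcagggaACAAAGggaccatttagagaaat
chr15:79152854-79152893: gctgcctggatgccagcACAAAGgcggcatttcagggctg
chr15:79152099-79152138: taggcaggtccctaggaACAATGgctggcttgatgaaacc
chr15:79126715-79126754: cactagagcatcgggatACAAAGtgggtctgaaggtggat
They lay 36.6 and 28.1 kb upstream of the 5′ end, and 12.3, 12.4, 13.1 and 38.5 kb downstream of it. Of these, the ACAATG 28.1 kb upstream lay in a footprint in both libraries, and the ACAAAG 12.4 kb downstream in a footprint of replicate 1 alone. The other 4 overlapped no footprint in either library. A match to such a short word is a description of the letters and does not show that a protein was bound.

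**Figure D4:**
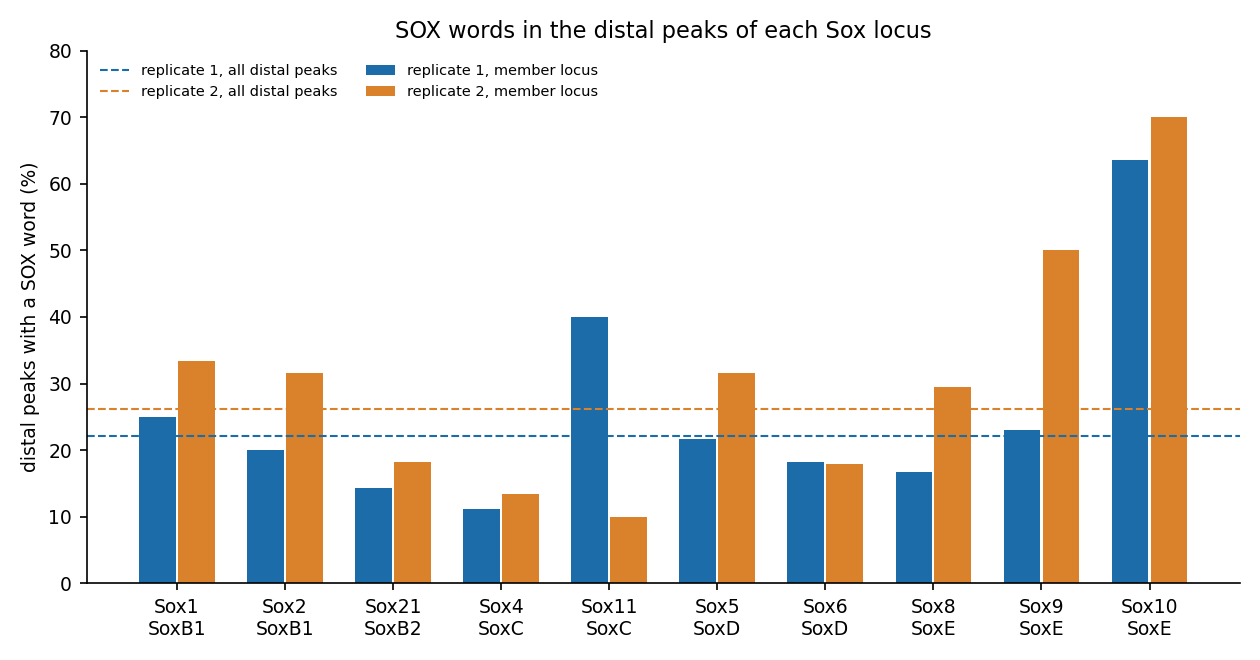
Percent of distal peaks at each Sox locus whose central 200 bp hold ACAATG or ACAAAG, in replicate 1 and replicate 2, with the share over all distal peaks as dashed lines (22.1% and 26.2%). Sox10 reaches 63.6% and 70.0%, and Sox4 stays at 11.1% and 13.3%.

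Footprints were present in 120 of 149 member distal peaks (80.5%) in replicate 1 and 165 of 209 (78.9%) in replicate 2, a mean of 79.7% ± 1.12 (SD, n = 2), against 75.7% and 78.9% of all distal peaks. Per peak there were 2.50 and 1.84 footprints, against 1.90 and 1.81, where a footprint in overlapping peaks counts in each. Member peaks had a median width of 220 bp in replicate 1 and 200 bp in replicate 2, against 180 and 200 bp for all distal peaks. No footprint count here was adjusted for peak width. Counting each footprint once, Sox10 had 47 in its 11 peaks in replicate 1 and 23 in 10 in replicate 2, and Sox8 had 57 in 18 and 47 in 17. Per peak this was 4.27 and 2.30 at Sox10 and 3.17 and 2.76 at Sox8, the highest member values in replicate 1 and, with their order turned, in replicate 2. Sox5 had the most footprints in replicate 2, 136 in 76 peaks, and 49 in 37 in replicate 1. Of footprints in member distal peaks, 30.4% in replicate 1 and 28.3% in replicate 2 overlapped one of the other library, against 41.1% and 27.3% of all distal footprints. A SOX word lay in the 30 bp around the middle of 14 of 345 member footprints (4.06%) in replicate 1 and 18 of 374 (4.81%) in replicate 2, against 2.51% and 3.08%.

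Of 134 footprints in the members' promoter peaks of replicate 1, 56 (41.8%) overlapped a footprint of replicate 2, and of 64 in replicate 2, 39 (60.9%) overlapped one of replicate 1. Over the promoter peaks of all coding genes these shares were 50.2% and 60.9%. Sox8 had 3 of 6 in replicate 1 and 3 of 3 in replicate 2, and Sox2 had 9 of 15 and 4 of 4. Sox21, with 18 footprints in replicate 1 and 5 in replicate 2, had 3 in both.

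Distal peaks at the Sox loci were richer in CpG than distal peaks at large. A ratio of observed to expected CpG above 0.6 was found in 32 of 149 windows (21.5%) in replicate 1 and 32 of 209 (15.3%) in replicate 2, against 7.76% and 4.99% of all distal windows. They were spread over 9 of the 10 loci, and the highest counts were those of Sox5, Sox2, Sox4, Sox11 and Sox1. Sox5 had 6 of 37 windows in replicate 1 and 6 of 76 in replicate 2. Sox2 had 5 of 10 and 6 of 19, and Sox4 had 4 of 9 and 6 of 15. Sox11 had 5 of 10 and 4 of 10, and Sox1 had 5 of 12 and 2 of 6. By share, Sox5 was the lowest of these loci in both libraries. None of the Sox10 windows passed this value in either library, and at Sox8 1 did in each. At Sox11 all such peaks lay in the gene's own exon.

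A further 10 Sox genes were taken for comparison, among them Sox17 and Sox18, which act in blood vessels. A peak at the promoter was present in both libraries at 5 of them, at 4 (Sox3, Sox14, Sox17 and Sox18) in replicate 1 alone, and at Sry in neither. Their median distal count was 4.5 in replicate 1 and 5 in replicate 2, against 4 and 6 over all coding loci. The counts ran from 0 in each library at Sry to 39 in replicate 1 at Sox13 and 14 in replicate 2 at Sox12. Sry lies on chromosome Y, which females lack, so its want of peaks was fixed in advance. It is nevertheless included in the promoter count and the medians of these 10 genes. Sox12 had promoter signals of 15.6 and 5.54, above Sox4 in replicate 1 and below it in replicate 2. Of 16 genes that work with Sox proteins or are known Sox targets, among them the POU partners Pou3f2 and Pou3f3 and the myelin genes Mbp and Mag, 14 had one at the promoter in both libraries. Nkx2-2 had one in replicate 1 alone. The 16 loci held a median of 13.5 and 11.5 distal peaks, or 8.21 and 10.2 per 100 kb. That is near the density of the Sox loci themselves, and no difference between the lists was tested.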

How the data were processed

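According to the listings the authors deposited beside the data, peaks and footprints were called library by library on mm10. No source used here names the aligner or the callers. The deposited peak lists, 2 per library, carry a signal per peak whose scaling is not stated, and the longer list was used. The deposited FDR (q-value) files list runs of bases under 0.05, and the deposited footprints have a score of 0.01 in every row, so positions alone were used.

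Genes and starts came from GENCODE M21 on chromosomes 1 to 19, X and Y, sequence from GRCm38.p6, the assembly of mm10, and promoter sequences from RefSeq on the same build. Coordinates are 1-based. An overlap of 1 bp or more counted as shared. Percentiles are the percent of values at or below. The listed alternatives were the stricter list, equal peak numbers, other windows, flanks and starts, and each library alone. Counting steps were tested on simulated data. The members and lists were chosen with earlier results of these data known. All 10 members were named, and genes of the other lists only as exceptions or examples; a gene of these lists is not reported here by name. Bedtools 2.31.1, Python 3.11.15, pandas 2.3.3, numpy 2.4.6 and matplotlib 3.10.9 were used.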

Additional observations from a re-analysis of the deposited data

How the results depend on the processing

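Every alternative on both libraries left 9 of 10 members with promoter peaks in each, and Sox10 as the exception. Read singly, replicate 2 gave 9 and replicate 1 gave 10. The median number of distal peaks per member locus, 12.25, was 7.75 in the stricter list, 11 with equal peak numbers, 2.5 without flanks, 8.25 with 20 kb, 17.75 with 100 kb, 9.75 over 2 kb from a start and 15.5 with protein-coding starts alone, and 11.5 to 13 in single libraries. The percent of distal peaks with a footprint, 79.7%, was 93.7% in the stricter list, 84.6% with equal peak numbers and 78.3% with protein-coding starts, and 78.9% to 80.5% in single libraries. The percent with a SOX word, 26.2%, was 14.5% in windows of 100 bp, 11.7% for ACAATG alone and 15.6% for ACAAAG alone, and 24.2% to 28.2% in single libraries. The percent shared stayed between 48.5% and 65.9% over the alternatives on both libraries, and was 49.3% and 69.8% in single libraries. The narrower window, flank or list by construction holds fewer peaks or words; for the equal peak numbers and the footprint shares the cause was not tested. Of 148 alternatives for single members' promoter percentiles and distal counts, 102 moved by less than the spread between libraries or not at all, 46 moved further, and 0 reversed. The 102 include the alternatives with a single library, which could not move beyond that spread by construction. A percentile or a count also has no sign that could reverse. Among the 46, Sox10's promoter percentile has 1 library and Sox11's distal count a spread of 0, so there any change counted. With 2 libraries of unknown depth, a peak missing from a library may be undetected there rather than closed. No paired analysis was possible because the study has 1 group and no test was made.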
